A study of Homo sapiens with 8 samples.

Results

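The transcripts described here are those of SFPQ, the splicing factor silenced in the study, and of 7 genes whose products meet it in or near paraspeckles: NONO, PSPC1, NEAT1, MALAT1, RBM14, TARDBP and MATR3. Their probes were found through the RefSeq accession that each probe of the array carries. Of the 20503 genes that these accessions named, 8 are thus described, and of the 50599 probes that are not controls 24 belonged to them: 1 to SFPQ, 2 to NONO, 1 to PSPC1, 4 to NEAT1, 8 to MALAT1, 3 to RBM14, 4 to TARDBP and 1 to MATR3. All 24 were well above the local background on each of the 8 arrays, so that none was lost to the filter on dim probes, and each is reported apart. Within a gene they are numbered by brightness, probe 1 being the brightest over the 8 arrays.

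Paraspeckles are small bodies in the nucleus that form on a long non-coding RNA, NEAT1, which holds the RNA-binding proteins of the body together. SFPQ, NONO (p54nrb) and PSPC1 are the members of the DBHS family, which act as pairs of proteins and coat this RNA, and SFPQ and NONO are needed for the body to form. NEAT1 is made as a short and a long transcript from the same start, and it is the long one on which paraspeckles are built. RBM14 bridges proteins inside the body, TARDBP (TDP-43) is an RNA-binding protein that acts on splicing and on the choice of 3′ ends, including that of NEAT1, and MATR3 is a protein of the nuclear matrix found in complexes with SFPQ and NONO. MALAT1 is an abundant nuclear RNA of the neighbouring splicing speckles. It serves here as a comparison, since in the RefSeq table its gene lies on chromosome 11 next to NEAT1, with 3 genes between them (FAUP4, ENEMAL and LINC02736).

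Total RNA was hybridized to 8 Agilent arrays with 1 colour, 4 for each of the lines MDAH and SKOV3. Both MDAH (MDAH-2774) and SKOV3 are established epithelial ovarian cancer lines, and no drug treatment is named for these arrays. Each line had 2 arrays of control cells and 2 arrays of SFPQ-silenced cells, which carried lentiviral pLKO constructs, sh-SFPQ#2 on 1 array and sh-SFPQ#3 on the other. The labels name both controls of a line as control shRNA, whereas the methods of the study speak of parental cells beside sh-ctrl cells, so they are called controls here and only the absence of silencing is used. The time from transduction to RNA extraction is not given in the sources used here. Since the 2 silenced arrays of a line differ in their shRNA, their spread holds the difference between the constructs as well, and since nothing states that arrays of a group came from separate cultures, p-values measure only the spread between these arrays.

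Levels are given as log2 signal minus the 75th percentile of the array's own log2 signals, so that a difference of 1 is a 2-fold difference. They depend on the probe. Only the numbering by brightness and the summed marker signals below set levels of different probes side by side. The 75th percentile of signal lay between 387 and 496 on 7 arrays and at 244 on the MDAH array with sh-SFPQ#3, and between 47.7% and 57.0% of all probes were well above background. On the arrays of both lines EPCAM, KRT8, KRT18, KRT19, PAX8 and ERBB2 were well above background, all of them markers of epithelial or ovarian cancer cells, whereas WT1 was so in MDAH only, CDH1 on 4 MDAH and 2 SKOV3 arrays, MUC16 on 2 SKOV3 arrays and MSLN on none. Among 8 markers of leukocytes, endothelium and fibroblasts, each array had 2 to 5 that were well above background, and no array had CD3E. The summed signal of these 8, relative to the 75th percentile, was 0.82 to 0.98 in MDAH controls and 1.41 to 1.87 in MDAH silenced cells, and 0.61 to 0.84 and 1.07 to 1.14 in the SKOV3 groups, against 272 to 463 for the epithelial markers. COL1A1 was higher on the silenced than on the control arrays in both lines and DCN in SKOV3. Their part in the results was not tested.

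SFPQ itself fell in both lines, which checks the labels of the silenced samples. In MDAH cells its level was 3.64 and 3.91 on the control arrays, 2.45 with sh-SFPQ#2 and 2.10 with sh-SFPQ#3. In SKOV3 cells it was 4.84 and 4.66 on the control arrays, 3.01 with sh-SFPQ#2 and 2.48 with sh-SFPQ#3. All silenced arrays thus lay below all controls, of the same line and of the other. The change was -1.50 in MDAH cells (standard error 0.24, limma adjusted p = 0.0300), which left 35.3% of the control signal, and -2.01 in SKOV3 cells (standard error 0.24, adjusted p = 0.0220), which left 24.9%. Averaged over both lines it was -1.75 (standard error 0.17, adjusted p = 0.0054). The fall did not differ between the lines beyond the spread of the arrays (difference 0.51, 95% interval -0.31 to 1.32, adjusted p = 0.523). In bulk RNA, fewer transcripts in each cell and a smaller share of cells with transcripts cannot be told apart, here and in what follows.

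The sh-SFPQ#3 construct left less SFPQ signal than sh-SFPQ#2 in both lines, 31.3% against 39.9% of the control mean in MDAH cells and 20.7% against 29.9% in SKOV3 cells, with 1 array for each. The 4 groups ranked from SKOV3 controls (mean 4.75 ± 0.13, SD, n = 2) over MDAH controls (3.77 ± 0.19) and silenced SKOV3 cells (2.74 ± 0.37) to silenced MDAH cells (2.27 ± 0.25). The silenced groups were neighbours whose nearest arrays stood at 2.48 and 2.45, within the spread of either group. The call in a single line depended on the arrays kept, since leaving 1 out leaves its group a single array. The size of the fall depended on them less. With any 1 array left out, the MDAH change ranged from -1.68 to -1.33 and the SKOV3 change from -2.27 to -1.74. In each fit below that lost the call, fewer of all probes passed in that line too. In MDAH cells SFPQ no longer passed without control 1 (-1.64, adjusted p = 0.184), control 2 (-1.36, 0.191) or the sh-SFPQ#3 array (-1.33, 0.118) of that line, nor without either SKOV3 control, which took part only through the estimate of the spread (0.06 each). In SKOV3 cells it no longer passed without control 1 (-1.92, 0.0969), control 2 (-2.10, 0.0679) or the sh-SFPQ#3 array (-1.74, 0.0642), or without either MDAH control (0.0727 each). The average over both lines passed without any 1 array, with adjusted p between 0.0060 and 0.0396.

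**Figure D1:**
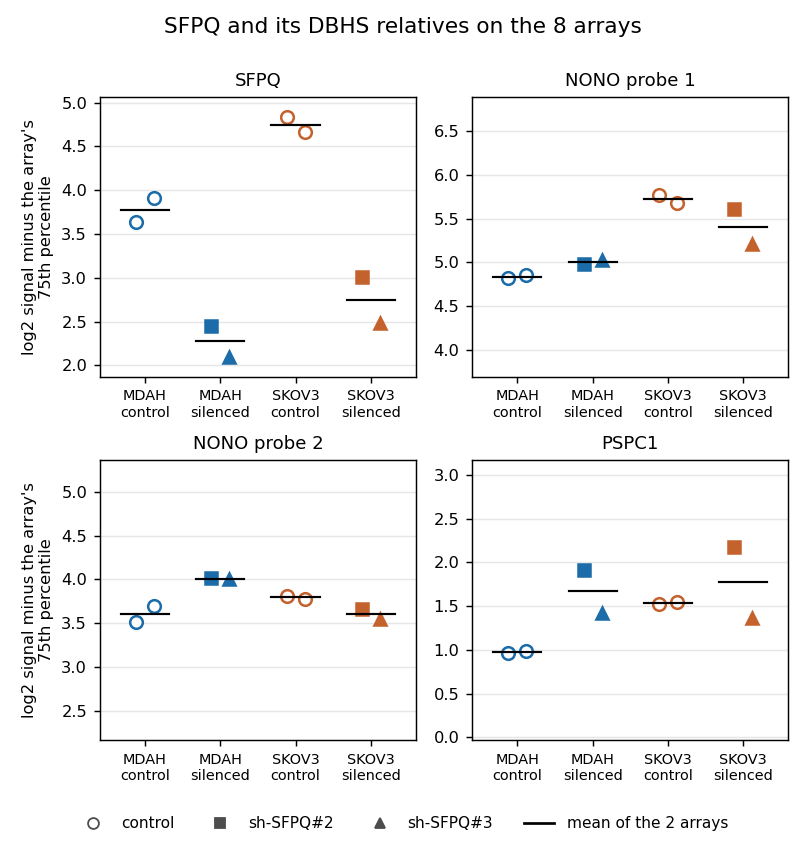
Level of SFPQ, NONO and PSPC1 on each array, as log2 signal minus the array's 75th percentile, in 4 panels that span the same range of 3.2 units; open circles are control arrays, squares sh-SFPQ#2, triangles sh-SFPQ#3, and lines the mean of the 2 arrays. SFPQ dropped from 3.77 to 2.27 in MDAH and from 4.75 to 2.74 in SKOV3 cells, NONO moved little and in opposite directions in the lines, and PSPC1 was higher with sh-SFPQ#2 than with sh-SFPQ#3.

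Of the 24 probes, SFPQ was the only one that passed in either line, and also the only one in the average of both. Over all 29018 probes tested, 2.69% passed in MDAH cells (2.11% lower), 1.30% in SKOV3 cells (0.786% lower) and 6.46% in the average (4.13% lower), so that 1 of 24 is near the background in each. In MDAH cells 5 of the 24 had an unadjusted p under 0.05, in SKOV3 cells 5 and in the average 7, beside 21.5%, 18.6% and 24.9% of all probes tested, so that these counts too are near the background. For the 24 the changes had a median of 0.27 in the MDAH line and 0.14 in the SKOV3 line, beside 0.07 and -0.03 for all probes tested. On 16 of the 24 probes both silenced MDAH arrays lay above both controls, on 1 (SFPQ) below, and on 7 the groups overlapped, while 54.9% of all probes did not overlap (31.5% above and 23.4% below). In SKOV3 cells these counts were 10, 7 and 7, and 56.3% of all probes did not overlap (25.7% above and 30.6% below).

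**Figure D2:**
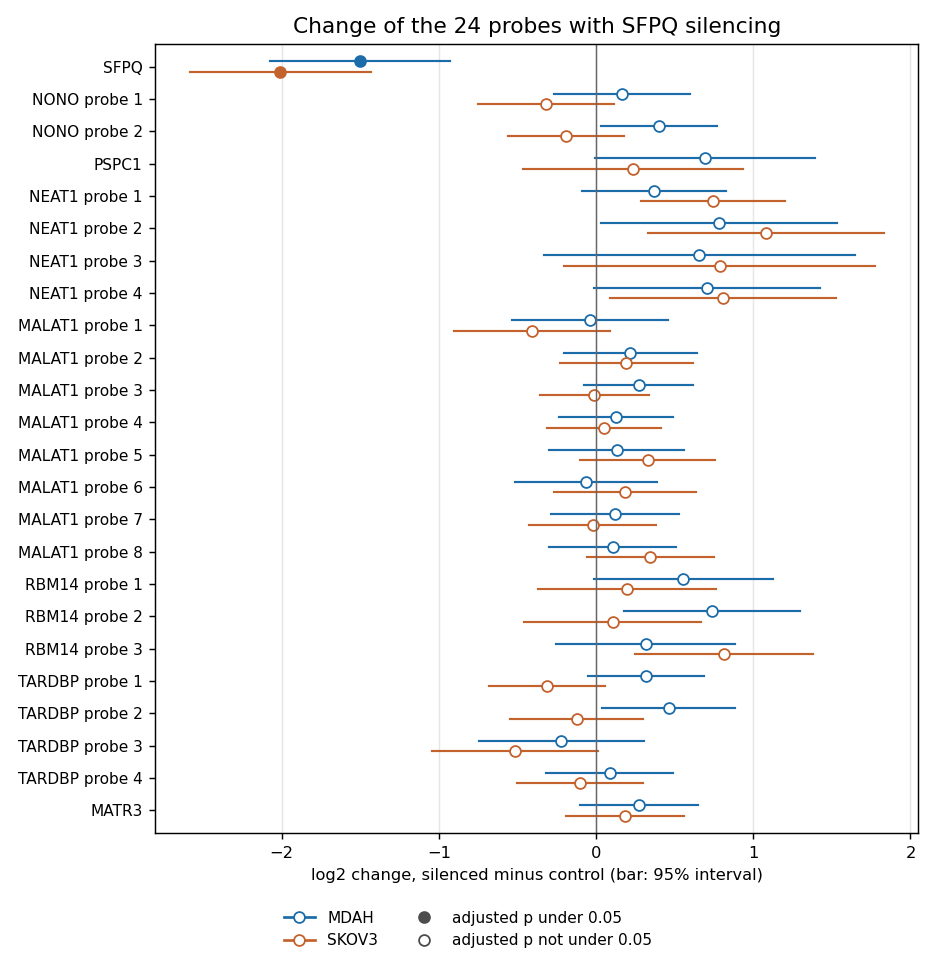
Log2 change with SFPQ silencing of each of the 24 probes in MDAH (blue) and SKOV3 (orange) cells, with 95% intervals from the fit over all 8 arrays; filled points passed an adjusted p of 0.05. Only SFPQ was filled, at -1.50 and -2.01, and the 4 NEAT1 probes lay between 0.37 and 1.08 in the lines.

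NONO, the DBHS protein that pairs with SFPQ, was slightly higher on all silenced MDAH arrays and slightly lower on all silenced SKOV3 arrays, and no change of it passed. NONO probe 1 read 4.82 and 4.85 on the MDAH controls and, with sh-SFPQ#2 and sh-SFPQ#3 in that order, 4.98 and 5.03 on the silenced arrays, and in SKOV3 cells 5.77 and 5.68 on the controls, 5.61 and 5.21 with the constructs. NONO probe 2 read 3.51 and 3.69, then 4.01 and 4.0 in MDAH cells, and 3.81 and 3.78, then 3.66 and 3.55 in SKOV3 cells. The groups did not overlap on either probe in either line. Changes were 0.17 and 0.40 in MDAH cells (adjusted p = 0.635 and 0.201) and -0.32 and -0.19 in SKOV3 cells (0.397 and 0.534). The difference of the changes between the lines was 0.48 for NONO probe 1 (95% interval -0.13 to 1.09, adjusted p = 0.429) and 0.59 for NONO probe 2 (0.07 to 1.12, adjusted p = 0.319), and neither passed.

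PSPC1, the third DBHS gene, was read by 1 probe. It stood at 0.96 and 0.99 on the MDAH controls, at 1.91 with sh-SFPQ#2 and at 1.42 with sh-SFPQ#3. In SKOV3 cells it stood at 1.52 and 1.55 on the controls, at 2.17 with sh-SFPQ#2 and at 1.37 with sh-SFPQ#3. Both MDAH silenced arrays were above the controls, whereas in SKOV3 cells 1 was above and 1 below. The change was 0.69 in MDAH cells (standard error 0.29, adjusted p = 0.236), 0.23 in SKOV3 cells (adjusted p = 0.70) and 0.46 in the average (95% interval -0.03 to 0.96, adjusted p = 0.224). The constructs had the opposite order from that on NEAT1 probes 2 to 4: sh-SFPQ#2 gave 0.94 and 0.63 above the control mean in the 2 lines, and sh-SFPQ#3 gave 0.45 and -0.17. NONO probe 2 and MALAT1 probes 5 and 8 were also higher with sh-SFPQ#2 in both lines. Without the sh-SFPQ#2 array the SKOV3 change turned to -0.17.

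NEAT1, the scaffold RNA, was higher in silenced cells on all 4 of its probes in both lines, and no probe passed in a line or in the average as fitted here, though some did under other settings. NEAT1 probe 1 read 6.02 and 6.26 on the MDAH controls, and 6.56 (sh-SFPQ#2) and 6.45 (sh-SFPQ#3) on the silenced arrays. In SKOV3 cells it read 5.44 and 5.60 on the controls and 6.08 and 6.44 with the constructs, so that both silenced arrays were above both controls in each line. NEAT1 probe 2 read 4.51 and 4.90, then 5.31 and 5.66 in MDAH cells, and 4.10 and 4.26, then 4.82 and 5.70 in SKOV3 cells. The probes in the lower range of signal showed the same order. NEAT1 probe 3 read 0.76 and 1.0, then 1.05 and 2.03 in MDAH cells, and 0.19 and 0.54, then 0.67 and 1.62 in SKOV3 cells. NEAT1 probe 4 read 0.57 and 1.03, then 1.29 and 1.73 in MDAH cells, and 0.14 and 0.24, then 0.63 and 1.37 in SKOV3 cells. On probe 3 the MDAH array with sh-SFPQ#2 was within reach of control 2, 1.05 against 1.0, and on the other probes the gap was wider.

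Across the 4 NEAT1 probes the change in MDAH cells ranged from 0.37 to 0.78, or from 129% to 172% of the control signal, with adjusted p between 0.218 and 0.402. In SKOV3 cells it ranged from 0.74 to 1.08, or from 167% to 211%, with adjusted p between 0.119 and 0.360. At an unadjusted p of 0.05, 1 of 4 passed in MDAH cells and 3 of 4 in SKOV3 cells, beside the 21.5% and 18.6% of all probes. Averaged over both lines, the changes were 0.56 (standard error 0.14, adjusted p = 0.0623), 0.93 (0.22, 0.0590), 0.72 (0.29, 0.189) and 0.76 (0.21, 0.0857) for probes 1 to 4, and all 4 had an unadjusted p under 0.05, as had 24.9% of all probes. The call in the average depended on the setting. NEAT1 probes 2, 3 and 4 passed in limma with the replicate number as a block (adjusted p = 0.0250, 0.0239 and 0.0332). That block fitted 1 term for control 2 against control 1 and 1 for sh-SFPQ#3 against sh-SFPQ#2, shared by the lines. The spread behind its p-values thus leaves out the difference between the constructs that the lines share. NEAT1 probes 1, 2 and 4 passed with normexp background correction (0.0352, 0.0141 and 0.0472). NEAT1 probes 1 and 2 passed among probes above background on all 8 arrays (0.0398 and 0.0345) and with an intensity trend (0.0265 and 0.0283), and NEAT1 probe 2 with median centring (0.0421). Most of these settings also let more of all probes pass in the average. The share was 6.46% as fitted here and 6.27% with median centring. It was 10.6% with the block, 7.77% with normexp, 7.74% with the filter on all 8 arrays and 8.73% with the trend. In SKOV3 cells NEAT1 probes 1 and 2 passed with normexp (0.0491 and 0.0460), where 3.36% of all probes passed, against 1.30% as fitted here. Without the SKOV3 array with sh-SFPQ#2, which leaves its group a single array, the averages of NEAT1 probes 1, 2 and 4 were 0.64, 1.15 and 0.94. In SKOV3 cells the change of NEAT1 probe 2 was then 1.52. No setting or array left out turned the direction of a NEAT1 change in either line. The differences between the lines were -0.37, -0.30, -0.13 and -0.10 for probes 1 to 4, with adjusted p from 0.551 to 0.934. Their 95% intervals all included 0, and the widest ran from -1.53 to 1.27.

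**Figure D3:**
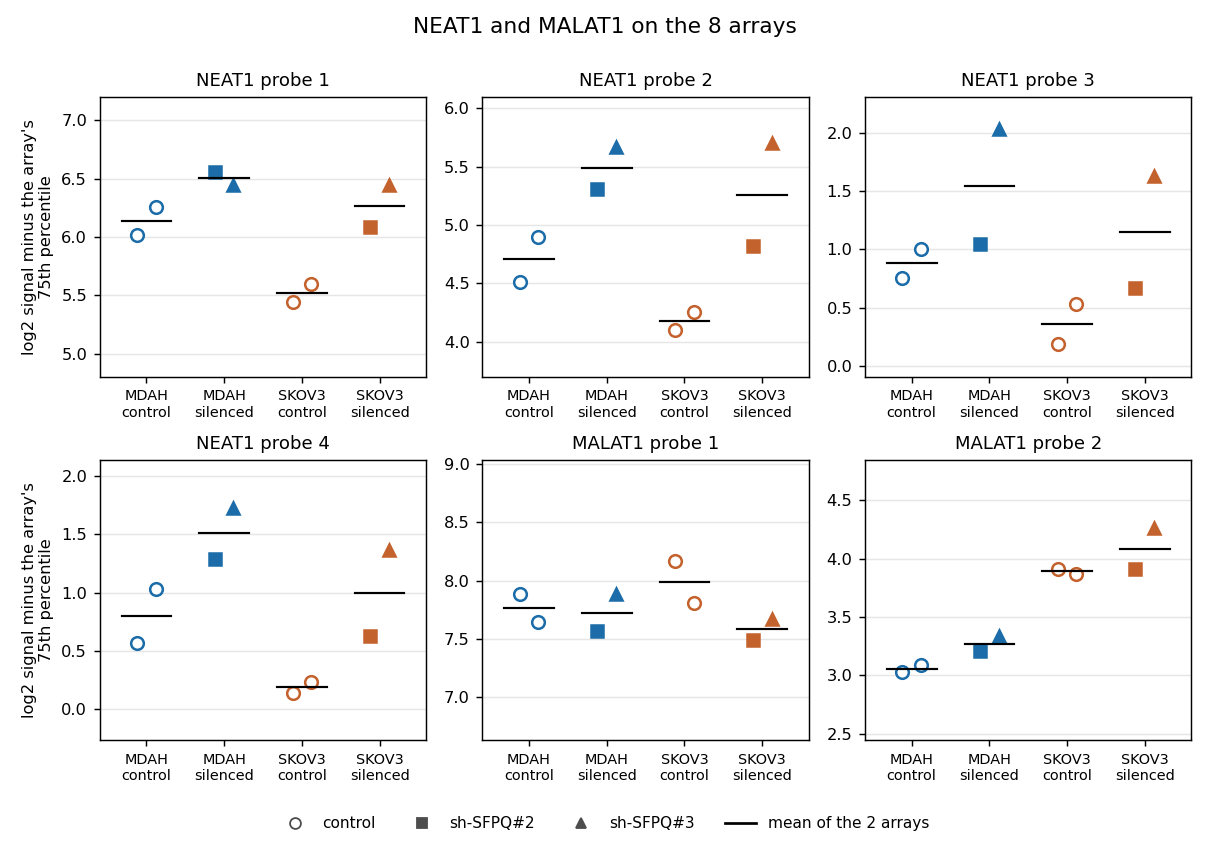
Level of the 4 NEAT1 probes and of MALAT1 probes 1 and 2 on each array, as log2 signal minus the array's 75th percentile, in panels that span the same range of 2.4 units; open circles are control arrays, squares sh-SFPQ#2, triangles sh-SFPQ#3, and lines the mean of the 2 arrays. On each NEAT1 panel both silenced arrays of a line lie above its 2 controls, as on probe 1 with 5.44 and 5.60 against 6.08 and 6.44 in SKOV3 cells, while MALAT1 probe 1 does not show this order.

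All 4 NEAT1 probes carry the accession of the short transcript, whose sequence the long transcript contains. The positions of the probes were not given in the files used here, so the 2 transcripts cannot be told apart. The probes also share their RNA and their arrays, so that 4 probes are not 4 replicates.

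MALAT1, read by 8 probes, showed no such order. The median of its changes was 0.12 in each line, and probes ranged from -0.06 to 0.27 in MDAH and from -0.41 to 0.35 in SKOV3 cells. None of the 8 had an adjusted p under 0.05 in limma or an unadjusted p under 0.05, in either line or the average. MALAT1 probe 1 read 7.88 and 7.65 on the MDAH controls, 7.57 and 7.88 with the constructs, and 8.17 and 7.81, then 7.5 and 7.67 in SKOV3 cells. It was the only MALAT1 probe on which a line's silenced arrays both lay below its controls, in SKOV3 cells (-0.41, 95% interval -0.90 to 0.09, adjusted p = 0.348). Its MDAH change of -0.04 (-0.54 to 0.46) turned to 0.07 with median centring. Both silenced arrays lay above both controls on MALAT1 probes 2, 3 and 4 in MDAH cells and on probes 5 and 8 in SKOV3 cells, and on no MALAT1 probe in both.

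RBM14, the bridging protein of the paraspeckle, was above both controls on all 3 probes in both lines. RBM14 probe 1 read 3.1 and 3.74 on the MDAH controls and 3.87 and 4.08 with the constructs, and 4.52 and 4.36, then 4.57 and 4.70 in SKOV3 cells. RBM14 probe 2 read 1.07 and 1.63, then 1.90 and 2.28 in MDAH cells, and 2.67 and 2.57, then 2.68 and 2.77 in SKOV3 cells. RBM14 probe 3 read -1.71 and -1.84, then -1.67 and -1.25 in MDAH cells, and -0.77 and -1.07, then -0.33 and 0.12 in SKOV3 cells. Several of these gaps were small beside the spread of the controls, as on probe 2 in SKOV3 cells, where 2.68 stood against 2.67. Changes ranged from 0.32 to 0.74 in MDAH cells (adjusted p from 0.147 to 0.481) and from 0.11 to 0.81 in SKOV3 cells (0.149 to 0.832).

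The RBM14 probes did not agree on the line with the larger change: probes 1 and 2 had 0.56 and 0.74 in MDAH cells against 0.20 and 0.11 in SKOV3 cells, whereas probe 3 had 0.32 against 0.81. In the average the changes were 0.38, 0.42 and 0.57, with adjusted p of 0.224, 0.180 and 0.0969, and 2 of the 3 had an unadjusted p under 0.05, beside 24.9% of all probes. RBM14 probe 3 passed in the average with the replicate block, as did 10.6% of all probes. No array left out made an RBM14 probe pass. All 3 carry the accession of RBM14 alone, and a further probe for a transcript that reads through into RBM4 was not counted among them.

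TARDBP was higher on silenced MDAH arrays and lower on silenced SKOV3 arrays on its 2 brightest probes. TARDBP probe 1 read 4.82 and 5.01 on the MDAH controls and 5.21 and 5.26 with the constructs, and 6.10 and 6.10, then 5.83 and 5.75 in SKOV3 cells. TARDBP probe 2 read 1.64 and 1.93, then 2.17 and 2.32 in MDAH cells, and 3.2 and 3.17, then 3.16 and 2.96 in SKOV3 cells. The changes were 0.32 and 0.46 in MDAH cells (adjusted p = 0.289 and 0.200) and -0.31 and -0.12 in SKOV3 cells (0.337 and 0.736). The change in MDAH minus that in SKOV3 cells was 0.63 for TARDBP probe 1 (95% interval 0.11 to 1.15, adjusted p = 0.309) and 0.59 for TARDBP probe 2 (-0.01 to 1.18, adjusted p = 0.363).

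TARDBP probes 3 and 4 did not repeat the higher MDAH level, as their groups overlapped there. In SKOV3 cells all 4 probes changed downward, and on probe 3 both silenced arrays lay below both controls. TARDBP probe 3 read -0.42 and -0.34, then -0.84 and -0.37 in MDAH cells, and 1.57 and 1.18, then 0.87 and 0.84 in SKOV3 cells, with changes of -0.22 and -0.52 (adjusted p = 0.598 and 0.275). TARDBP probe 4 overlapped between groups in both lines, with changes of 0.09 and -0.10. MATR3, on its 1 probe, read 2.98 and 3.18 on the MDAH controls, 3.34 and 3.36 with the constructs, and 3.13 and 3.16, then 3.27 and 3.39 in SKOV3 cells. Both silenced arrays were thus above both controls in each line, by 0.27 in MDAH cells (adjusted p = 0.359), 0.18 in SKOV3 cells (0.556) and 0.23 in the average (95% interval -0.03 to 0.49, adjusted p = 0.254).

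In both lines at once, 8 of the 24 probes were above both controls on all silenced arrays: the 4 of NEAT1, the 3 of RBM14 and that of MATR3. SFPQ was below in both, and the 2 probes of NONO and TARDBP probes 1 and 2 were above in MDAH and below in SKOV3 cells. Over all probes tested, 21.6% did not overlap and moved the same way in both lines (11.3% higher and 10.3% lower), and 11.0% moved in opposite ways. For the difference between the lines, none of the 24 passed in limma, 2 had an unadjusted p under 0.05 (NONO probe 2 and TARDBP probe 1) beside 13.9% of all probes, and 0.145% of all probes passed.

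The constructs ranked the members in different orders, with 1 array per construct and line and therefore no test. With sh-SFPQ#3, the construct that left less SFPQ, NEAT1 probes 2 to 4 stood 0.96, 1.15 and 0.93 above the control mean in MDAH cells and 1.52, 1.26 and 1.18 above it in SKOV3 cells. With sh-SFPQ#2 the same probes stood 0.61, 0.17 and 0.49 above it in MDAH cells and 0.64, 0.31 and 0.44 in SKOV3 cells. NEAT1 probe 1 had this order in SKOV3 cells (0.92 against 0.56) and not in MDAH cells (0.31 against 0.42). All RBM14 probes were higher with sh-SFPQ#3 in both lines, and PSPC1 was lower with it in both. The sh-SFPQ#3 array of MDAH cells was the dimmest of the 8. With the sh-SFPQ#2 array alone NEAT1 stood 0.17 to 0.61 above the MDAH controls. Over all probes tested, 34.3% were higher with sh-SFPQ#3 in both lines and 27.1% lower.

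**Figure D4:**
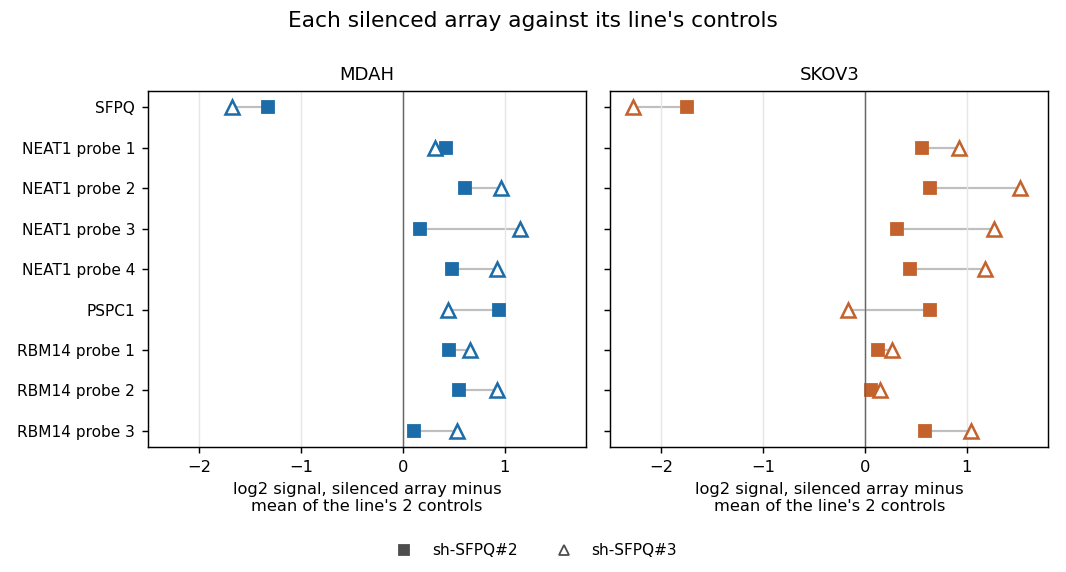
Log2 signal on each silenced array minus the mean of the line's 2 controls, for SFPQ, NEAT1, PSPC1 and RBM14 in MDAH (left) and SKOV3 (right); filled squares are sh-SFPQ#2 and open triangles sh-SFPQ#3, 1 array each. SFPQ lies further left with sh-SFPQ#3 (-1.68 against -1.33 and -2.27 against -1.74), NEAT1 probes 2 to 4 further right, and PSPC1 further left.

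Control cells of the 2 lines differed on a share of the 24 probes that was near the share over all probes. Of the 24 probes, 14 passed, 1 higher in MDAH and 13 higher in SKOV3 controls, where 51.8% of all probes passed (25.9% in each direction), and 21 of the 24 did not overlap, against 82.5% of all probes. The median of MDAH minus SKOV3 was -0.63 for the 24 and 0.01 for all probes. TARDBP was lower in MDAH controls on all 4 probes, by -1.19, -1.40, -1.75 and -0.66 (adjusted p = 0.000884, 0.000760, 0.000742 and 0.0157). RBM14 was lower on all 3, by -1.02, -1.27 and -0.85 (0.0106, 0.0040 and 0.0218), and SFPQ by -0.98 (0.0135), or 50.9% of the SKOV3 control signal. NONO probe 1 was lower by -0.89 (0.0061), whereas NONO probe 2 (-0.19, 0.334) did not pass.

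NEAT1 went the other way: all 4 probes were higher in MDAH controls, by 0.61, 0.53, 0.52 and 0.61, with probe 1 passing (adjusted p = 0.0334) and probes 2 to 4 not (0.207, 0.334 and 0.134). All 8 MALAT1 probes were lower in MDAH controls, with a median of -0.44, and 4 passed (probes 2, 4, 6 and 7). MALAT1 probes 3 and 5 turned to 0.12 and 0.04 with the deposited values, and probes 4 and 6 no longer passed with them (adjusted p = 0.0673 and 0.0744). PSPC1 (-0.56, adjusted p = 0.153) and MATR3 (-0.07, adjusted p = 0.740) did not pass. Fewer of the 24 passed without any 1 of the 4 controls, each of which leaves its group a single array, and fewer of all probes passed then too. NEAT1 probe 1 no longer passed without any 1 of the 4 controls (adjusted p from 0.0655 to 0.166), with median centring (0.46, 0.0976) or with no filter on dim probes (0.0588), and TARDBP probes 1 to 3, RBM14 probe 2 and NONO probe 1 passed without each array. SFPQ no longer passed without MDAH control 1 (-0.84, 0.0868) or SKOV3 control 1 (-0.89, 0.0734). RBM14 probes 1 and 3 and TARDBP probe 4 no longer passed without MDAH control 1 (0.0559, 0.0730 and 0.0667) or SKOV3 control 1 (0.0598, 0.119 and 0.0769). RBM14 probe 3 and TARDBP probe 4 did not pass without MDAH control 2 (0.105 and 0.0752), nor TARDBP probe 4 without SKOV3 control 2 (0.0692). MALAT1 probe 4 no longer passed without any 1 of the 4 controls (0.0522 to 0.0847), and MALAT1 probes 6 and 7 not without MDAH control 1 (0.148 and 0.0967), SKOV3 control 1 (0.137 and 0.0751) or SKOV3 control 2 (0.0605 and 0.0657), while MALAT1 probe 2 passed without each array.

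**Figure D5:**
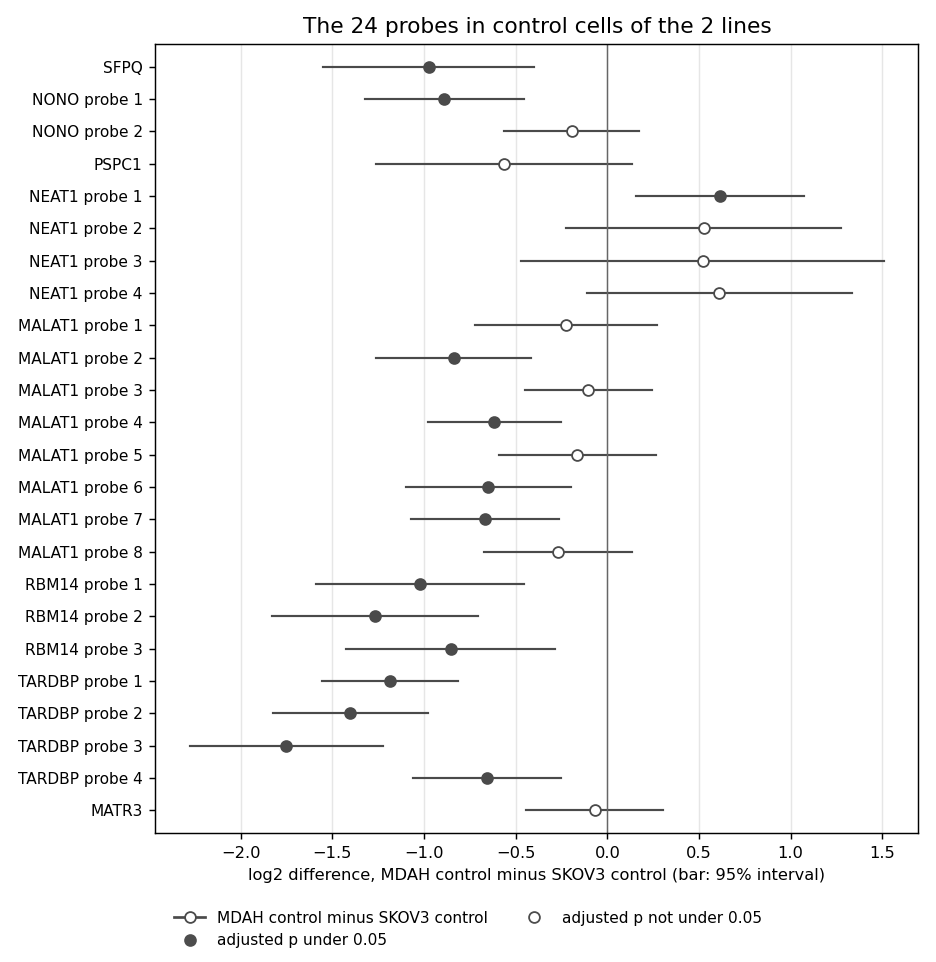
Log2 difference of the 24 probes between control cells, MDAH minus SKOV3, with 95% intervals; filled points passed an adjusted p of 0.05. The 4 NEAT1 probes lie right of 0, between 0.52 and 0.61, and the other 20 probes left of it, down to -1.75 for TARDBP probe 3.

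The other protein components of paraspeckles were taken as a list of 37 genes, among them EWSR1, HNRNPK and CPSF6, with 59 probes, of which 57 from 36 genes were tested. None passed in MDAH or in SKOV3 cells in limma, while 12 and 9 had an unadjusted p under 0.05, about the share of all probes (21.5% and 18.6%). The median change was 0.22 in MDAH cells, with 41 probes higher and 16 lower, and -0.16 in SKOV3 cells, with 17 higher and 40 lower. For all probes the medians were 0.07 and -0.03, with 56.2% and 47.3% higher. With an array left out, the MDAH median of the list ranged from 0.12 (without the sh-SFPQ#3 array) to 0.30 (without the sh-SFPQ#2 array). The change in MDAH minus that in SKOV3 cells had a median of 0.33, beside 0.07 for all probes. It was above 0 on 45 of the 57 probes, beside 55.3% of all probes. None of the 57 passed for this difference, and 8 had an unadjusted p under 0.05, beside 13.9% of all probes.

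In the average over both lines 2 of the 57 passed, beside 6.46% of all probes. BCL6, a transcriptional repressor, read -0.71 and -1.02 on the MDAH controls, -0.14 and -0.49 with the constructs, and -0.32 and -0.18, then 0.96 and 1.78 in SKOV3 cells. Its average rose by 1.09 (standard error 0.21, adjusted p = 0.0332). BCL11A, another zinc-finger repressor, read on its probe 1 2.01 and 1.93, then 1.31 and 0.75 in MDAH cells, and -0.30 and -0.42, then -1.11 and -1.15 in SKOV3 cells. Its average was -0.86 (standard error 0.15, adjusted p = 0.0272), while its probes 2 and 3, which carry accessions of other transcripts, had 0.10 and 0.39 and did not pass. Neither call held throughout when an array was left out, which leaves its group a single array. Where the call was lost, the change stayed between 0.88 and 1.17 for BCL6 and between -0.89 and -0.83 for BCL11A. Without a control array of either line, fewer of all probes passed in the average too. In these fits BCL6 passed only without the SKOV3 sh-SFPQ#2 array, and BCL11A without either MDAH silenced array or the SKOV3 sh-SFPQ#2 array.

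The scaffold proteins of nuclear speckles, the bodies where MALAT1 resides, were taken as a list of 8 genes (SON, SRRM1, SRRM2, PNN, ACIN1, THRAP3, BCLAF1 and RNPS1) with 14 probes. None passed in MDAH cells, SKOV3 cells or the average in limma, beside 2.69%, 1.30% and 6.46% of all probes. At an unadjusted p under 0.05 these counts were 0, 1 and 0, beside 21.5%, 18.6% and 24.9%. The median change was 0.14 in MDAH cells (11 higher, 3 lower) and -0.14 in SKOV3 cells (5 higher, 9 lower). For all probes the medians were 0.07 and -0.03, with 56.2% and 47.3% higher. The change in MDAH minus that in SKOV3 cells had a median of 0.30, beside 0.07 for all probes, near that of the other paraspeckle proteins. It was above 0 on 12 of the 14 probes, beside 55.3% of all probes. None of the 14 passed for this difference, beside 0.145% of all probes.

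Across the 8 arrays, the genes whose probes followed SFPQ most closely were VPS45 (Pearson r = 0.989), MAP3K20 (0.984) and LHPP (0.984), out of 16364 named probes well above background on all arrays. For NEAT1 probe 1 they were DRC10 (0.979), CFAP91 (0.976) and LAMB2 (0.973). These coefficients describe 8 arrays in 4 groups, which share their line, silencing and hybridization, and carry no test.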

How the data were processed

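RNA of 8 samples was measured on 1 array each. Per the file headers, the authors deposited the intensity of each spot after background subtraction and spatial detrending by Feature Extraction 11.5.1.1 (the submitters' processing notes name 10.7.3.1), without normalization between arrays. A second table deposited by the authors holds log2 values, found to be quantile-normalized and centred on each probe's median over the arrays. It served as an alternative. Here control and outlier spots (209 to 310 per array) were removed, the log2 signals of spots that share a probe were averaged, and the 75th percentile of the array was subtracted. The 29018 probes that 1 or more groups had well above background on each of their 2 arrays were fitted in R 4.3.3 with limma 3.58.1, 1 row per probe, all 4 groups together (4 residual and 2.76 prior degrees of freedom), with Benjamini-Hochberg adjustment and a threshold of 0.05. Changes are differences of group means, intervals are 95% intervals of the fit, and the number of arrays limits their precision. Symbols came from RefSeq accessions through a GRCh38.p14 table (28174 probes matched). The arrays were designed on another build, so no coordinates are given. The text names all probes of the 8 genes, list genes with a probe that passed with silencing, and the 3 genes most like SFPQ and NEAT1. Members, lists and tests were chosen with earlier results of these data known. The alternatives were median centring, quantile normalization, normexp, the deposited log2 values, other filters, 1 probe a gene, outlier spots kept, an intensity trend, each line fitted apart, a replicate block and each array left out. All arrays lay on 1 slide, each line in a row with controls before silenced samples, so position and group cannot be told apart. The fit was tested on simulated data.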

Additional observations from a re-analysis of the deposited data

Results flagged for a closer look

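NONO and the 2 brightest TARDBP probes stood out because all silenced MDAH arrays lay above their controls and all silenced SKOV3 arrays below theirs. The change in MDAH cells minus that in SKOV3 cells was 0.48 for NONO probe 1, 0.59 for NONO probe 2, 0.63 for TARDBP probe 1 and 0.59 for TARDBP probe 2, on the log2 scale. Tested as an interaction in limma, none of these passed (adjusted p = 0.429, 0.319, 0.309 and 0.363), and 11.0% of all probes tested showed such an opposite order.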

How the results depend on the processing

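Of 1977 recomputed values, 1782 were counted as kept, and the cause of the other shifts was not tested. A change had to keep its direction and its side of the threshold, and a median its direction within the spread of the arrays. A count of passing probes could differ from the main count by a bounded factor. Leaving out an array of a line cannot alter the change in the other line, so part of the kept directions was fixed in advance. Median centring moved the median change of all probes in MDAH cells from 0.07 to 0.18, and normexp to 0.17, so that changes there are relative to it.

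Of the 24 probes, 0 passed in MDAH cells with median centring, with no filter and with each line fitted apart (SFPQ adjusted p = 0.0579, 0.0608 and 0.0520). Over all probes 2.56%, 0.688% and 1.83% passed there. In SKOV3 cells 3 passed with normexp and 0 with no filter or each line fitted apart (SFPQ 0.0593 and 0.124), beside 3.36%, 0.182% and 0% of all probes. In the average 2 passed with median centring, 4 with normexp, 3 among probes above background on all 8 arrays, 3 with an intensity trend and 5 with the replicate block. The added ones were NEAT1 probes and, under the block, RBM14 probe 3. In these settings 6.27%, 7.77%, 7.74%, 8.73% and 10.6% of all probes passed in the average. In the controls 5 passed with 1 probe a gene, beside 57.5% of all probes. Leaving out an array leaves its group a single array, and the share of all probes that passed then shifted as well. The counts that follow are to be read beside that shift and do not single out these probes. With an array left out the counts ranged from 0 to 1 in MDAH cells, 0 to 2 in SKOV3 cells, 1 to 4 in the average and 6 to 14 in the controls, and stayed at 0 for the difference between lines.

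Replicate numbers mark the shRNA or a control and no shared batch. The replicate block took out the difference between the constructs, and that between the controls, as far as the lines shared it. Its p-values therefore do not cover that difference. Deviations of same-numbered arrays correlated between the lines at 0.35 for silenced and 0.07 for control arrays. With the replicate block NEAT1 probes 2, 3 and 4 passed in the average (adjusted p = 0.0250, 0.0239 and 0.0332), and NEAT1 probe 1 did not (0.0643). In the controls 17 of 24 passed with the block. Over all probes 10.6% passed with it in the average and 55.5% in the controls.

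Of the other paraspeckle proteins, 1 passed in MDAH cells with normexp or an intensity trend, beside 3.73% and 3.8% of all probes. In SKOV3 cells 1 passed with normexp, the filter on all 8 arrays or an intensity trend, beside 3.36%, 1.5% and 2.54%. In the average 1 passed with median centring or the replicate block and 0 with no filter, beside 6.27%, 10.6% and 1.1%. The median of this list became 0.33 in MDAH cells with median centring. For the difference between lines it was 0.48 with median centring, 0.24 with quantile normalization, 0.24 with normexp and 0.24 with the deposited values. In the controls it was -0.52, and -0.67, -0.35 and -0.34 with median centring, quantile normalization and the deposited values. The share of all probes that passed also shifted when an array was left out. The counts that follow thus do not single out this list. With an array left out 0 to 5 passed in MDAH cells, 0 to 1 in SKOV3 cells, 0 to 3 in the average, 0 to 1 for the difference and 22 to 36 in the controls, and medians ranged from 0.12 to 0.30, -0.21 to -0.11, -0.000186 to 0.0781, 0.25 to 0.39 and -0.54 to -0.49. Of the nuclear speckle scaffolds, 1 passed in the average with the replicate block, beside 10.6% of all probes. The median of the scaffolds became -0.0028 in the average with normexp and -0.64 in the controls with median centring. Where fewer scaffolds passed in the controls with an array left out, fewer of all probes passed there too. With an array left out 3 to 6 passed in the controls, and medians ranged from 0.0013 to 0.28 in MDAH cells, -0.27 to -0.0816 in SKOV3 cells, -0.0662 to 0.0741 in the average (below 0 at -0.0662, -0.0059 and -0.0433), 0.19 to 0.44 for the difference and -0.62 to -0.36 in the controls.

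These directions turned. In the controls NONO probe 2 became 0.0163 with quantile normalization and 0.0184 with the deposited values, and MATR3 0.15 and 0.16, or 0.0286 without MDAH control 1. MALAT1 probe 3 became 0.12 with both, and MALAT1 probe 5 became 0.0395 and 0.0408 and ranged from -0.34 to 0.0112 with an array left out. The difference between lines became 0.0172 and 0.0434 with median centring for NEAT1 probes 3 and 4. With an array left out it ranged from -0.74 to 0.14 for probe 2, from -0.62 to 0.36 for probe 3 and from -0.47 to 0.27 for probe 4. MALAT1 probe 1 in MDAH cells became 0.0731 with median centring and ranged from -0.19 to 0.12 with an array left out. The MALAT1 median in SKOV3 cells ranged from -0.0048 to 0.20 with an array left out, and that of the difference became -0.17 with quantile normalization, -0.0579 with normexp, -0.17 with the deposited values and -0.0772 without the SKOV3 sh-SFPQ#2 array. PSPC1 in SKOV3 cells was -0.17 without its sh-SFPQ#2 array and 0.63 without its sh-SFPQ#3 array. TARDBP probe 3 in MDAH cells ranged from -0.46 to 0.0124. TARDBP probe 4 became -0.0066 in MDAH cells without the sh-SFPQ#3 array, and ranged from -0.23 to 0.0309 in SKOV3 cells.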
